A study of Mus musculus with 8 samples.

Results

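The genes described are the mouse UDP-glucuronosyltransferases (Ugt), cytosolic sulfotransferases (Sult) and carboxylesterases (Ces), measured in jejunal mucosa. Members were taken by symbol (Ugt1a, Ugt2a, Ugt3a and Ugt2b genes with a number, Sult genes with a number, and Ces1 to Ces5 genes with a letter, pseudogenes left out), which gave 61 of 56980 genes in the count tables, 21 Ugt, 21 Sult and 19 Ces. Of the 61, 31 had at least 10 counts in at least 4 libraries and were tested for genotype, 8 more had over 3 reads in at least 1 library, 3 had a single read in all libraries together and 19 had none.

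Ugt enzymes sit in the endoplasmic reticulum and join glucuronic acid, carried by UDP-glucuronic acid, to bilirubin, steroids, bile acids, phenols and drugs. Sult enzymes work in the cytosol and move sulfate from the donor PAPS to hydroxyl and amino groups of hormones, sterols and phenols. Carboxylesterases hydrolyse ester and amide bonds of drugs, prodrugs and lipid esters. Enterocytes of the small intestine carry all 3 families, so that many ingested compounds are hydrolysed or conjugated before they reach the portal blood, and some carboxylesterases also hydrolyse acylglycerols.

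The study compared 4 male Adipoq-F2-KO mice with 4 male FFA2 fl/fl littermates, here called floxed controls, 1 library per mouse. FFA2, the gene Ffar2, is a receptor for acetate and other short-chain fatty acids, and both groups carry its floxed allele. Only the Adipoq-F2-KO mice also carry an adiponectin-Cre transgene, whose promoter is active in adipocytes, so the deletion is directed to fat cells and not to the epithelium that was sequenced. Mice of both genotypes shared cages from birth, ate chow until 12 weeks of age, and then received a Western diet with 10% fructooligosaccharides (FOS) for 2 weeks in thermoneutral housing. The strain background is not given in the sources used here. Mucosa was scraped from the jejunum and is labelled as a mixed cell type, and fewer cells of a type cannot be told apart from less RNA per cell.

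Libraries held 6007654 to 21712776 counts. The 3 libraries under 10000000 counts (floxed library 3 and Adipoq-F2-KO libraries 3 and 4) are called shallow and the other 5 deep. Ffar2 itself was near the limit of counting in mucosa, at 4.18 to 9.49 normalized counts in floxed controls and 5.64 to 12.0 in Adipoq-F2-KO mice, which checks neither label because adipocytes were not sampled. Summed normalized counts of 20 villus enterocyte markers ranged from 1104548 to 1236898 in floxed controls and from 1063534 to 1171381 in Adipoq-F2-KO mice, so the labelled tissue was present in every library. Of 10 hepatocyte markers 1 passed the filter, and Ahsg, Fgb and Fgg were at 0. Floxed library 3 stood apart with 30426 summed normalized counts of 10 smooth muscle markers, against 3768 to 8323 in the other floxed libraries and 4149 to 12587 in Adipoq-F2-KO libraries.

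The 7 sequences below are promoters of leading members and of neighbours on the chromosome that were abundant (Sult1d1) or silent (Ugt1a10 and Sult1e1). Ces2e, Ugt2b34, Ugt1a1 and Sult1b1 lead their large groups per kilobase of unshared exon, averaged over all libraries. By counts Ugt1a7c leads Ugt1a1. Each is the 250 bases before the RefSeq start site in GRCm38.p6, read 5′ to 3′ on the gene's own strand. Capitals mark letters that match, on either strand, an HNF1 half-site (GTTAAT), a CDX core (TTTATG) or an HNF4 core (CAAAGT), 3 transcription factor families of the intestinal epithelium. No marked match shared bases with another.
Ces2e, chr8:104926010-104926259, plus strand: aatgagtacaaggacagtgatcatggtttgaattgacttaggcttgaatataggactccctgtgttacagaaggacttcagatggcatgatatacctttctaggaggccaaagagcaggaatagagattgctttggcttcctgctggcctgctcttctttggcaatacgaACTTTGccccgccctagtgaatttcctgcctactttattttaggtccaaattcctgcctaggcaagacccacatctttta
Ugt2b34, chr5:86906938-86907187, minus strand: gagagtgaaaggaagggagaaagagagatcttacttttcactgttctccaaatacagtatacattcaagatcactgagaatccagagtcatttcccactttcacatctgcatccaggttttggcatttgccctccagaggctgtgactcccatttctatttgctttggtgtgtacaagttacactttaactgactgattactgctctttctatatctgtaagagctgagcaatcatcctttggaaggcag
Ugt1a1, chr1:88211709-88211958, plus strand: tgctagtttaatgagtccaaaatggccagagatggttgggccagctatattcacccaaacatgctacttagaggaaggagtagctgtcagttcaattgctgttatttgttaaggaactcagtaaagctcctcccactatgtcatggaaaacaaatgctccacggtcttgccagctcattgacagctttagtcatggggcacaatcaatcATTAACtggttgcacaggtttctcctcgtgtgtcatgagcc
Ugt1a10, chr1:88055161-88055410, plus strand: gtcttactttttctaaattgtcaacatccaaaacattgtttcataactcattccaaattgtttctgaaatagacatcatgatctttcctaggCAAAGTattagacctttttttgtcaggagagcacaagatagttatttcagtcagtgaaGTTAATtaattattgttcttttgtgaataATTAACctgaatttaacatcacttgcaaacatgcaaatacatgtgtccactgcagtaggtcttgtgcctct
Sult1b1, chr5:87538196-87538445, minus strand: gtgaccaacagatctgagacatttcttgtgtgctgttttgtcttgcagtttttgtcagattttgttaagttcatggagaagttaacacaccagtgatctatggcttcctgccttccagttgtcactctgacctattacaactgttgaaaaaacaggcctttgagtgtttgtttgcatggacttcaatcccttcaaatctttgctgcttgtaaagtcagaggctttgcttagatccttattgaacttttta
Sult1d1, chr5:87569007-87569256, minus strand: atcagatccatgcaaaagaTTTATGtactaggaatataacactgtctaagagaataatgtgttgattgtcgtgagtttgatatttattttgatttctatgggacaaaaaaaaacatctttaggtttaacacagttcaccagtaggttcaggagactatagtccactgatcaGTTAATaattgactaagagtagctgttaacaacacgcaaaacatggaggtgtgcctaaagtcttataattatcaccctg
Sult1e1, chr5:87591612-87591861, minus strand: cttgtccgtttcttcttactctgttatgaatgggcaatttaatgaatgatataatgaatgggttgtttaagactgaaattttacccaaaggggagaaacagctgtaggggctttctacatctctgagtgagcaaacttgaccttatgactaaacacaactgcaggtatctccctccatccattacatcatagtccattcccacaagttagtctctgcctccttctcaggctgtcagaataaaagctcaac

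The Ces2e promoter held 1 HNF4 core, 80 bases before the start. Ugt1a1, which was abundant, held 1 HNF1 half-site at 41 bases, and Ugt1a10 of the same locus, with 1 read in all 8 libraries, held 2, at 100 and 71 bases, with an HNF4 core at 158. Sult1d1 held an HNF1 half-site at 79 bases and a CDX core at 231, whereas its abundant neighbour Sult1b1 and its neighbour without reads, Sult1e1, held none of the 3, and neither did Ugt2b34. Sult1b1 is listed with 2 RefSeq starts, of which the first is shown, and the RefSeq start of Sult1e1 is not a transcript start in GENCODE M21.

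RefSeq promoters were found for 51 of the 61 members, 26 of them tested and 18 of them among the 22 members with no library over 3 reads. GTTAAT stood in 6 of the 26 and 8 of the 18, against 6.52% of the 27025 RefSeq promoters searched, and 4 of those 8 were Sult2a genes of 1 cluster. The 27025 are the first listed promoter of each gene, with chromosome 18 left out. TTTATG stood in 5 and 0, against 11.1%, and CAAAGT in 5 and 2, against 12.5%. For the xenobiotic sensors, the PXR and CAR half-site AGTTCA stood in 4 and 6 (11.9% of those searched), the AHR core GCGTG in 2 and 0 (28.2%) and the NRF2 element TGACNNNGC in 0 and 0 (10.1%). Both strands were searched for each motif. These matches are descriptions of letters, and binding was not measured.

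Members took 0.282 to 0.452% of the counts of a library, and a few genes carried each family. Levels were compared between genes as normalized counts per kilobase of exon not shared with another gene on the same strand, averaged over the 8 libraries. On this scale Ces2e stood highest with 4403, followed by Sult1b1 with 1625, Ugt2b34 with 1434, Ces2c with 1303, Sult1d1 with 957, Ugt1a1 with 918, Ugt1a7c with 906 and Ces2a with 855. Ugt2a3 (570), Sult2b1 (429), Ces1f (425), Sult6b2 (345), Ces2g (188), Ugt2b5 (120) and Ugt2b35 (103) formed the middle of the order. The remaining 16 tested members lay between 93.8 for Ces1e and 1.86 for Ces2f.

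**Figure D1:**
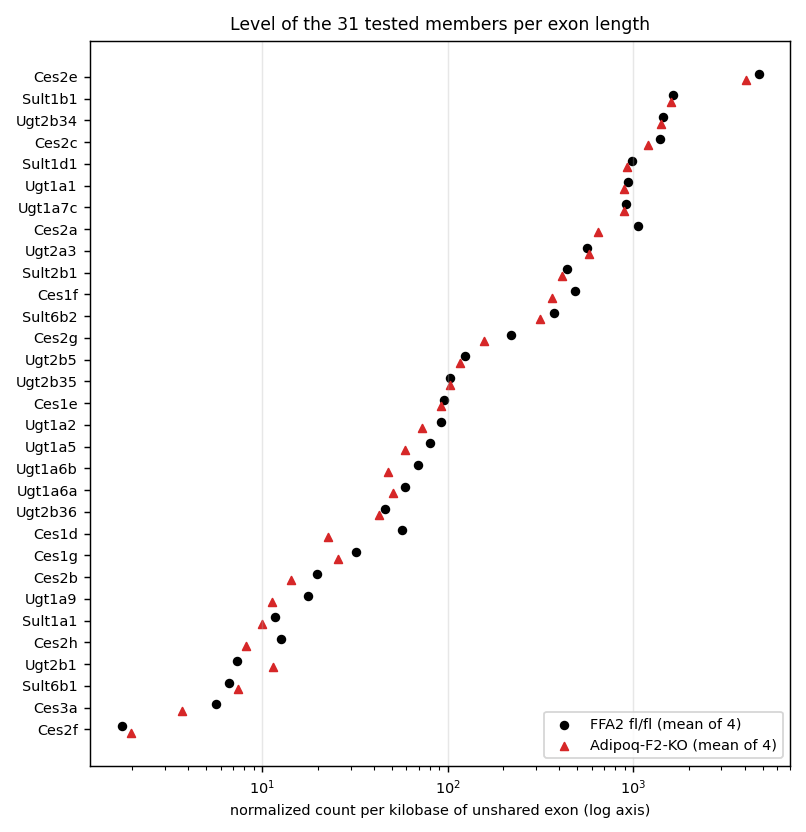
Level of each of the 31 tested members as the mean normalized count per kilobase of unshared exon (log axis) in 4 floxed controls (black circles) and 4 Adipoq-F2-KO mice (red triangles). Ces2e lies at the top with 4403 over all libraries and Ces2f at the bottom with 1.86, and the circle lies to the right of the triangle for most carboxylesterases.

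The 7 Ces2 genes and Ces3a, Ces3b and Ces4a form 1 cluster on chromosome 8, and all 7 Ces2 genes were tested. Within Ces2, Ces2e took 66.8% ± 5.48 (SD, n = 4) of the counts in floxed controls and 68.8% ± 1.68 in Adipoq-F2-KO mice. Ces2c, a triacylglycerol hydrolase of the intestine, followed with 16.4% ± 0.58 and 17.5% ± 1.29, and Ces2a with 12.3% ± 5.05 and 9.63% ± 2.32. Of the exon sequence of Ces2c, 22.1% of 75-base windows also occur in genes elsewhere (Ces2d-ps, Gm8798 and Gm6831), and of Ces2a 11.4% (Gm7208). These other genes held at most 41 reads in a library, and how reads that match more than 1 gene were counted is not given in the sources used here.

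The 9 Ugt1a genes lie on chr1:88055388-88220002 (GRCm38, plus strand), where the genes start at separate first exons and share the later exons. The shared bases made up 50.3 to 60.6% of the exon bases of a gene, reads in them cannot be given to 1 gene, and the counts of each member are held as uncertain. For 7 of the 9 genes the unshared bases lie before the common exons. Of the 1915 unshared bases of Ugt1a7c, 998 lie after the last common base, at the 3′ end that all the genes share, and 917 before, and of the 2142 of Ugt1a6a 1920 lie between common exons, so the counts of Ugt1a7c and Ugt1a6a cannot be read as reads of a first exon. Per kilobase of unshared exon, Ugt1a1, the enzyme that conjugates bilirubin, took 44.0% ± 4.80 of the locus in floxed controls and 44.1% ± 6.19 in Adipoq-F2-KO mice. Ugt1a7c took 41.7% ± 2.24 and 44.0% ± 4.91 on this scale, which divides by all of its unshared bases. Gm20528 on the opposite strand overlaps 922 of the 2224 exon bases of Ugt1a1, against 394 of 4219 in Ugt1a7c. The strand setting of the counting is not given in the sources used here, so the level of Ugt1a1 is uncertain for this reason too. Of the counts themselves Ugt1a7c took 58.5% ± 2.08 and 60.8% ± 4.58 and Ugt1a1 29.5% ± 3.76 and 29.2% ± 5.15, so the order of these genes depends on the length used. Ugt1a2, Ugt1a5, Ugt1a6b, Ugt1a6a and Ugt1a9 lay between 14.5 and 82.7 normalized counts per kilobase, Ugt1a8 had 20 reads in all libraries and Ugt1a10 had 1.

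Ugt2b34 took 77.0% ± 1.65 of the counts of the Ugt2 and Ugt3 genes in floxed controls and 76.3% ± 3.08 in Adipoq-F2-KO mice, and Ugt2a3 took 14.7% ± 0.948 and 15.1% ± 2.36. Ugt2a1, Ugt2a2, Ugt3a1 and Ugt3a2 had no reads, and 94.5% or more of the exon bases of Ugt2a1 and of Ugt2a2 are shared with another gene on the same strand. Ugt2b5 shares 30.4% of its 75-base windows with Ugt2b37 and Ugt2b38, which had 48 and 21 reads in all. Among sulfotransferases, Sult1b1 (which sulfates thyroid hormones and phenols) and Sult1d1 (which sulfates catecholamines) took 65.3% ± 4.02 and 34.4% ± 4.05 of the Sult1 counts in floxed controls, and 66.2% ± 3.78 and 33.5% ± 3.80 in Adipoq-F2-KO mice. Sult2b1, the cholesterol sulfotransferase, and Sult6b2 led the other Sult genes.

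The silent members were of named kinds. All 8 Sult2a genes, the hydroxysteroid and bile acid sulfotransferases, had no reads in any library, as did Sult1e1 (the estrogen sulfotransferase), Sult1c1, Sult3a1, Sult3a2, Ces1h, Ces4a and Ces5a. With 0 reads a level of up to 3 reads in a library is allowed, by counting error only. Of the 75-base windows of Sult2a2, 47.2% also occur in genes elsewhere, of Sult2a5 25.6%, of Sult2a1 19.5% and of Sult2a4 11.5%. How reads that match more than 1 gene were counted is not given, so for these 4 genes reads could have been left out. The plasma esterase gene Ces1c had 56 reads over the 8 libraries, Sult1c2 53, Ces3b 39, Ces1b 16 and Sult4a1 13, all under the filter, and Ces1a and Sult5a1 had 1 each.

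The comparison of genotypes asks whether loss of FFA2 in adipocytes goes with a different expression of these enzymes in the jejunum. None of the 31 tested members passed an adjusted p of 0.05 (DESeq2, adjusted over 15986 genes; 0.0375% of all genes passed), and the adjusted p was 0.9998 for each of them. At an unadjusted p below 0.05, Ces1d and Ces2e were lower in Adipoq-F2-KO mice, 2 of 31 members (1.38% of all genes were lower at that level), and 0 members were higher (1.65% of all). The 4 libraries of one genotype overlapped those of the other for all 31 members (2.12% of all genes did not overlap). The fitted change was below 0 for 27 of 31 members, against 51.5% of all genes, with a median log2 fold change of −0.21 beside −0.0067 over all genes. edgeR's quasi-likelihood test also called 0 members after adjustment (0.0125% of all genes) and had the same 2 genes lower at an unadjusted p below 0.05 (1.86% of all genes), and limma-voom called 0 (0.00626% of all genes) and had 1 lower, Ces2e (2.14% of all genes). Members share regulators, libraries and in part sequence, so the count of 27 is no test.

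**Figure D2:**
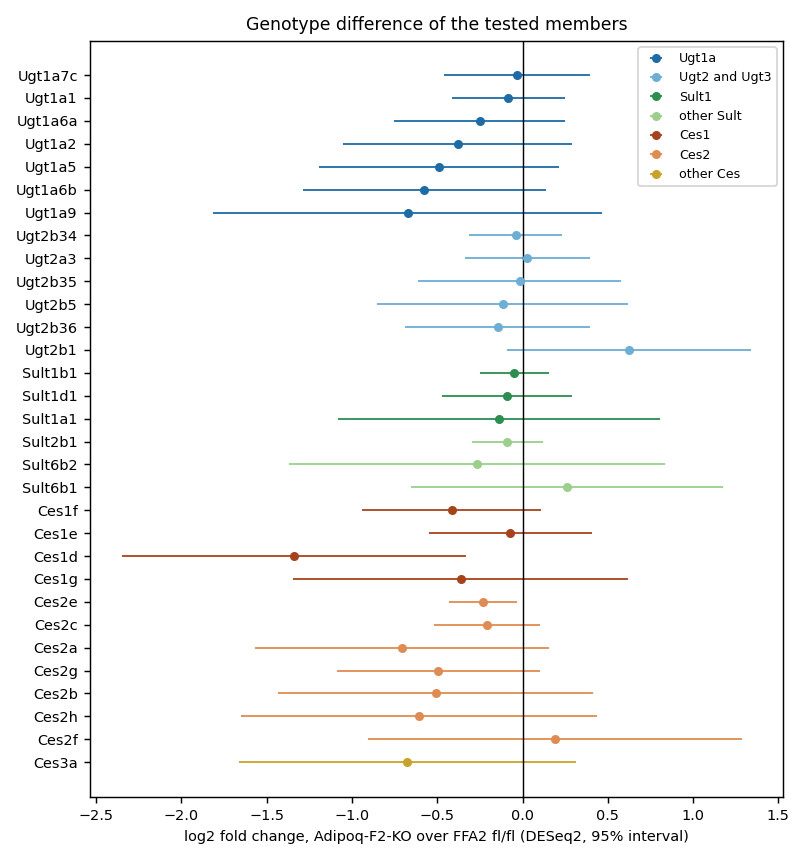
Log2 fold change of each tested member, Adipoq-F2-KO over floxed controls, from DESeq2 with its 95% interval (lines), coloured by gene group. Points of 27 of 31 members lie left of 0, the intervals of Ces1d and Ces2e alone exclude 0, and the adjusted p of each member was 0.9998.

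Ces2e (ENSMUSG00000031886, chr8:104926260-104934672 in GRCm38) had 14438, 13267, 11156 and 12473 normalized counts in floxed libraries 1 to 4 and 11642, 11002, 10649 and 10442 in Adipoq-F2-KO libraries 1 to 4. The highest Adipoq-F2-KO library stood above only the lowest floxed library, the 1 rich in smooth muscle RNA. The mean was 12834 ± 1379 in floxed controls and 10934 ± 526 in Adipoq-F2-KO mice (SD, n = 4), a log2 fold change of −0.23 (SE 0.10, 95% interval −0.43 to −0.03, DESeq2 adjusted p = 0.9998). Leaving out floxed library 1 gave −0.17 (SE 0.10), leaving out floxed library 3 gave −0.29 (SE 0.092, adjusted p = 0.0982), and the 5 deep libraries gave −0.25 (SE 0.11, adjusted p = 0.671), all with DESeq2. The unadjusted p was no longer below 0.05 without floxed library 1 or 2, without Adipoq-F2-KO library 3 or 4, or with villus enterocyte size factors, where the log2 fold change was −0.17, −0.22, −0.22, −0.21 and −0.19. In the 3 shallow libraries the floxed one was also the highest, with 11156 against 10649 and 10442.

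Ces1d (ENSMUSG00000056973, chr8:93166068-93197838), a triacylglycerol hydrolase known from liver and fat, had 274, 106, 121 and 36.4 normalized counts in floxed libraries and 61.6, 27.9, 84.1 and 41.4 in Adipoq-F2-KO libraries. Floxed library 1 was the highest of the 8, and floxed library 4 lay below 3 of the 4 Adipoq-F2-KO libraries. Its log2 fold change was −1.34 (SE 0.51, 95% interval −2.35 to −0.33, DESeq2 adjusted p = 0.9998), and without floxed library 1 it was −0.72 (SE 0.47). The unadjusted p was also above 0.05 without floxed library 3 (−1.38), without both floxed libraries 1 and 3 (−0.44), in the 5 deep libraries (−1.64), with the smooth muscle covariate (−1.30) and with limma-voom (−1.26). Ces1d is also an adipocyte gene. Summed normalized counts of 7 adipocyte markers were 1479 to 1821 in floxed controls and 960 to 1446 in Adipoq-F2-KO mice, most of them from Cidec, a lipid droplet gene (log2 fold change −0.49, SE 0.13, DESeq2 adjusted p = 0.232). Of the other 6 markers Cfd and Fabp4 passed the filter and Adipoq, Lep, Plin1 and Retn did not. The part of adipose tissue in the Ces1d difference was not tested.

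Ces2g (ENSMUSG00000031877, chr8:104961718-104969537) separated the genotypes except for 1 library. It had 940, 881, 301 and 1026 normalized counts in floxed libraries and 602, 655, 513 and 470 in Adipoq-F2-KO libraries. Floxed libraries 1, 2 and 4 lay above every Adipoq-F2-KO library and floxed library 3 below every one. Over all 8 libraries the log2 fold change was −0.49 (SE 0.30, 95% interval −1.09 to 0.10, DESeq2 adjusted p = 0.9998). Without floxed library 3 it was −0.75 (SE 0.14, DESeq2 adjusted p = 1.2e-04, where 0.651% of all genes passed), and in the 5 deep libraries, which hold 2 Adipoq-F2-KO mice, −0.60 (adjusted p = 0.0061, where 0.482% passed). With the smooth muscle marker score as a covariate it was −0.32 (SE 0.22). In the 3 shallow libraries the order was the opposite, with the floxed library at 301 and the Adipoq-F2-KO libraries at 513 and 470. Over the 19 alternatives the log2 fold change stayed between −0.76 and −0.32, with adjusted p from 1.2e-04 to 1.00.

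Ces1f (ENSMUSG00000031725, chr8:93256236-93279747), the most abundant Ces1 gene with 78.0% ± 8.06 of the Ces1 counts in floxed controls, had a similar arrangement. Its normalized counts were 2407, 1806, 782 and 1381 in floxed libraries and 1210, 1205, 1095 and 1278 in Adipoq-F2-KO libraries. Again only floxed library 3 fell below the Adipoq-F2-KO range, and the Adipoq-F2-KO libraries were nearly level, differing 1.17-fold from lowest to highest against 3.08-fold in floxed controls. The log2 fold change was −0.42 (SE 0.27, 95% interval −0.94 to 0.11) over all libraries, −0.64 (SE 0.18, DESeq2 adjusted p = 0.0306) without floxed library 3 and −0.15 (SE 0.24) without floxed library 1. With both of these floxed libraries left out, a choice made after the values were seen, Ces1f was at −0.41 (adjusted p = 0.234) and Ces2g at −0.76 (adjusted p = 0.0049, where 0.582% of all genes passed).

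For Ces2a, which hydrolyses acylglycerols, the fitted difference rested mostly on 1 mouse. Floxed library 1 held 4833 normalized counts, and the other floxed libraries held 1807, 1819 and 1549, beside 1808, 968, 1608 and 1750 in Adipoq-F2-KO mice. The other 3 floxed libraries lay within or close to the Adipoq-F2-KO range. The log2 fold change was −0.71 (SE 0.44, 95% interval −1.57 to 0.16), and −0.17 (SE 0.21) without floxed library 1. Ces2a was lower at an unadjusted DESeq2 p below 0.05 with villus enterocyte size factors (−0.69, SE 0.34, where 0.826% of all genes were lower) and with the replicate block (−0.58, SE 0.25, where 1.1% were), and not after adjustment. Ces2c had 4245, 3090, 2522 and 2966 normalized counts in floxed libraries and 2664, 2819, 2993 and 2649 in Adipoq-F2-KO libraries, a log2 fold change of −0.21 (SE 0.16), and −0.042 (SE 0.12) without floxed library 1. Among the low carboxylesterases, Ces1e was at −0.072 (SE 0.24), Ces1g at −0.36 (SE 0.50), Ces2b at −0.51 (SE 0.47), Ces2h at −0.61 (SE 0.53), Ces3a at −0.68 (SE 0.50) and Ces2f at 0.19 (SE 0.56), and no interval excluded 0.

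**Figure D3:**
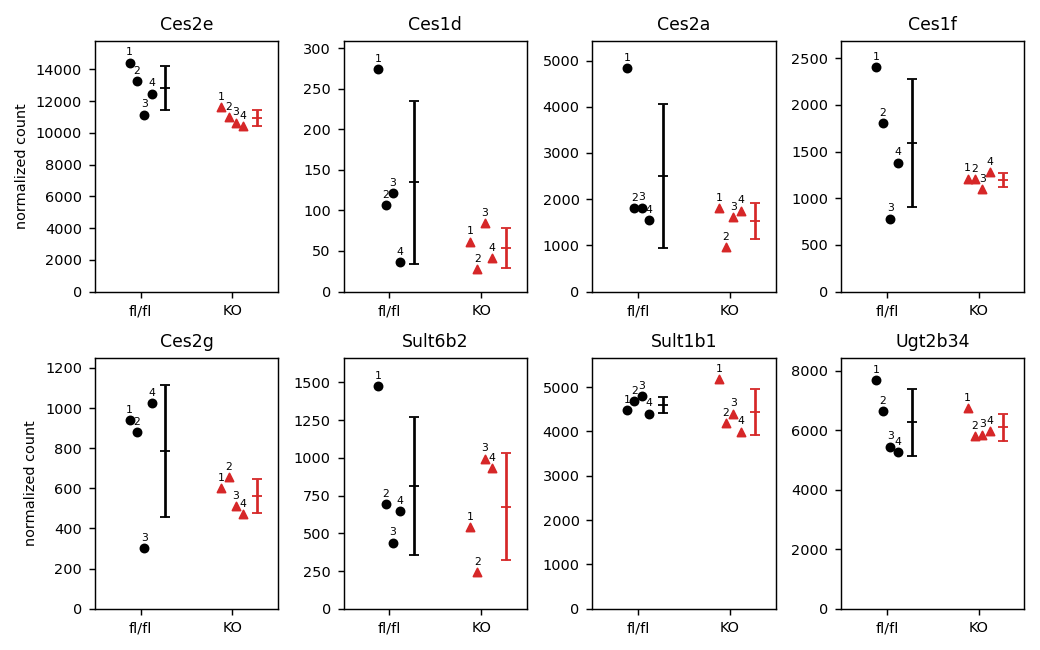
Normalized count in each library (numbered points, black circles floxed controls, red triangles Adipoq-F2-KO) with mean and SD (n = 4) for 8 members. Floxed library 1 is the highest for Ces1d, Ces2a and Ces1f, floxed library 3 is the lowest for Ces1f and Ces2g at 782 and 301, and the genotypes overlap for Sult1b1 and Ugt2b34.

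The leading Ugt genes were fitted near 0 over all 8 libraries. Ugt2b34 had 7683, 6649, 5452 and 5278 normalized counts in floxed libraries and 6752, 5805, 5856 and 5977 in Adipoq-F2-KO libraries, and its log2 fold change of −0.040 had a 95% interval of −0.31 to 0.23. The floxed libraries spanned the Adipoq-F2-KO libraries on both sides. Ugt1a1 had 1069, 928, 650 and 797 against 914, 877, 771 and 696, with a log2 fold change of −0.08 (95% interval −0.41 to 0.25). Ugt1a7c had 2202, 1895, 1043 and 1867 against 1446, 1624, 2160 and 1641, with −0.032 (95% interval −0.46 to 0.40). In the 5 deep libraries Ugt1a7c was at −0.38, lower at an unadjusted DESeq2 p below 0.05 (2.85% of all genes) and without overlap (23.6% of all genes), and not after adjustment. For both Ugt1a genes floxed library 3 was the lowest of the 8 and floxed library 1 the highest. Ugt2a3 was at 0.029 (95% interval −0.34 to 0.39). Each of these 4 intervals includes the value of −0.23 fitted for Ces2e.

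All 7 tested Ugt1a genes were fitted below 0, with a median log2 fold change of −0.38, and none had an unadjusted DESeq2 p below 0.05. Floxed library 3 was the lowest floxed library for all 7. Without it, Ugt1a5, Ugt1a6a and Ugt1a6b were lower at an unadjusted DESeq2 p below 0.05 (3.77% of all genes). The 5 deep libraries, which also leave it out, gave Ugt1a2, Ugt1a5, Ugt1a6a, Ugt1a6b and Ugt1a7c lower at that level (2.85% of all genes). None of these passed after adjustment. Ugt1a6a, which conjugates simple phenols, had 161, 134, 69.0 and 141 normalized counts in floxed libraries and 108, 95.5, 136 and 95.9 in Adipoq-F2-KO libraries (log2 fold change −0.25, SE 0.26), and Ugt1a2 had 92.7, 58.5, 52.3 and 129 against 44.2, 58.9, 92.1 and 67.7 (−0.38, SE 0.34). The lower 3 were Ugt1a5 at −0.49 (SE 0.36), Ugt1a6b at −0.57 (SE 0.36) and Ugt1a9 at −0.67 (SE 0.58). Because they share a locus and exons they are not separate observations. The 6 Ugt2 genes had a median of −0.028. Ugt2b35 was at −0.016 (SE 0.30), Ugt2b5 at −0.12 (SE 0.38) and Ugt2b36 at −0.15 (SE 0.28). Ugt2b1 had the highest value of the 31 members, 0.63 (SE 0.37, 95% interval −0.09 to 1.34), at 14.7 to 23.2 normalized counts in floxed controls and 18.8 to 40.04 in Adipoq-F2-KO mice. Without Adipoq-F2-KO library 4 it was at 0.76 (SE 0.38), did not overlap (3.93% of all genes) and was higher at an unadjusted DESeq2 p below 0.05 (1.06% of all genes), and not after adjustment.

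The median coefficient of variation among Adipoq-F2-KO mice was 20.9% for Sult, 17.9% for Ugt and 29.9% for Ces genes, and among floxed controls it was 23.7%, 34.5% and 42.4%. Sult1b1 had 4473, 4688, 4806 and 4404 normalized counts in floxed libraries and 5177, 4189, 4403 and 3997 in Adipoq-F2-KO libraries, a log2 fold change of −0.047 with a 95% interval of −0.25 to 0.16. Sult2b1 had 1744, 1710, 1660 and 1875 against 1652, 1872, 1590 and 1442, with −0.090 (95% interval −0.30 to 0.12). Floxed library 3 held the highest floxed value of Sult1b1 and the lowest of Sult2b1, but the highest floxed library exceeded the lowest by only 1.09-fold and 1.13-fold. Sult2b1 overlaps Lmtk3 on the opposite strand, and the strand setting of the counting is not given in the sources used here.

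Sult1d1 had 2634, 1877, 2591 and 2613 normalized counts in floxed libraries and 3035, 1637, 2324 and 2119 in Adipoq-F2-KO libraries, with a log2 fold change of −0.091 (95% interval −0.47 to 0.29). The libraries numbered 2 were the lowest of their genotype. Sult6b2 varied far more, with 1478, 692, 439 and 646 against 542, 241, 995 and 932. It differed 3.36-fold among floxed libraries and 4.14-fold among Adipoq-F2-KO libraries, and its log2 fold change was −0.27 (95% interval −1.37 to 0.83). In the 5 deep libraries Sult6b2 was at −1.27, lower at an unadjusted DESeq2 p below 0.05 (2.85% of all genes) and without overlap (23.6% of all genes), and not after adjustment. In the 3 shallow libraries the order was the opposite, with the floxed library at 439 and the Adipoq-F2-KO libraries at 995 and 932. The low genes Sult1a1 and Sult6b1 were at −0.14 (SE 0.48) and 0.26 (SE 0.47).

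**Figure D4:**
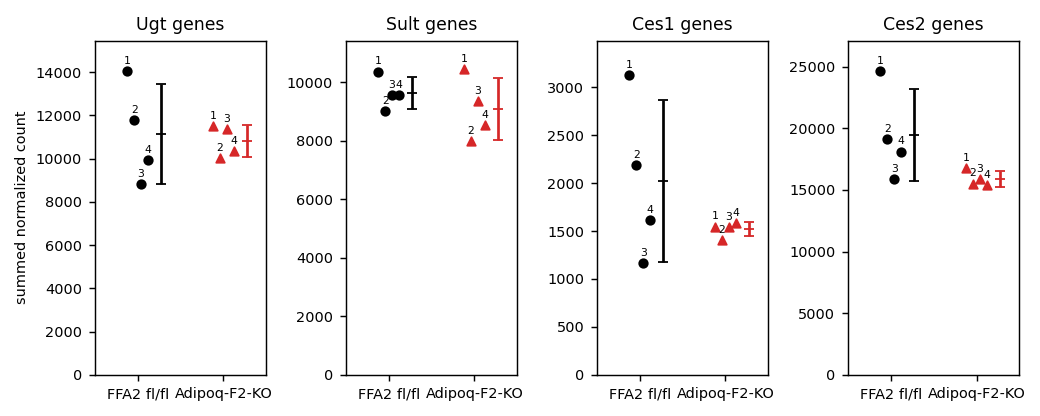
Summed normalized counts of all Ugt, Sult, Ces1 and Ces2 members per library (numbered points, black circles floxed controls, red triangles Adipoq-F2-KO) with mean and SD (n = 4). Floxed library 1 is highest and floxed library 3 is lowest among floxed controls for Ugt, Ces1 and Ces2, and the Adipoq-F2-KO points for Ces1 and Ces2 lie close together.

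The summed level of all 19 Ces genes was 27793, 21340, 17033 and 19751 normalized counts in floxed libraries and 18356, 16934, 17440 and 16958 in Adipoq-F2-KO libraries. Floxed libraries 1, 2 and 4 lay above every Adipoq-F2-KO library, and floxed library 3 lay within their range. The means were 21479 ± 4570 and 17422 ± 665 (SD, n = 4), a ratio of 0.811. The Sult sum was 9622 ± 557 and 9077 ± 1070 (ratio 0.943) and the Ugt sum 11139 ± 2296 and 10815 ± 733 (ratio 0.971). No test was made on these sums.

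The coefficient of variation was larger among floxed than among Adipoq-F2-KO mice for 22 of 31 members (55.4% of all genes), 9 of 12 Ces, 11 of 13 Ugt and 2 of 6 Sult genes. Among the 24 members with a mean of at least 50 normalized counts, the median coefficient of variation was 38.2% in floxed controls and 17.7% in Adipoq-F2-KO mice, beside 14.2% and 12.8% over all genes of that level. Floxed library 1 was the highest floxed library for 22 of 31 members (22.9% of all genes) and the highest of all 8 for 21 (12.3% of all genes). Floxed library 3 was the lowest floxed library for 19 (34.5% of all genes). Without floxed library 1, 17 of 31 members were fitted below 0 (51% of all genes), the median log2 fold change was −0.049, and 0 members passed the adjusted threshold (0.0125% of all genes) or were lower at an unadjusted DESeq2 p below 0.05 (0.863% of all genes). Without floxed library 3, 27 were below 0 (48.8% of all genes), the median was −0.30, 7 members were lower at an unadjusted p below 0.05 (3.77% of all genes), 6 did not overlap (9.54% of all genes), and Ces1f and Ces2g passed the adjusted threshold (0.651% of all genes). In the 5 deep libraries 26 were below 0 (50.5% of all genes), 9 were lower at that level (2.85% of all genes) and 12 did not overlap (23.6% of all genes). Without floxed libraries 1 and 3, 17 were below 0 (47.6% of all genes), Ces1f, Ces2e, Ces2g and Ugt1a5 were lower at that level (2.38% of all genes) and 7 members did not overlap (15.9% of all genes).

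**Figure D5:**
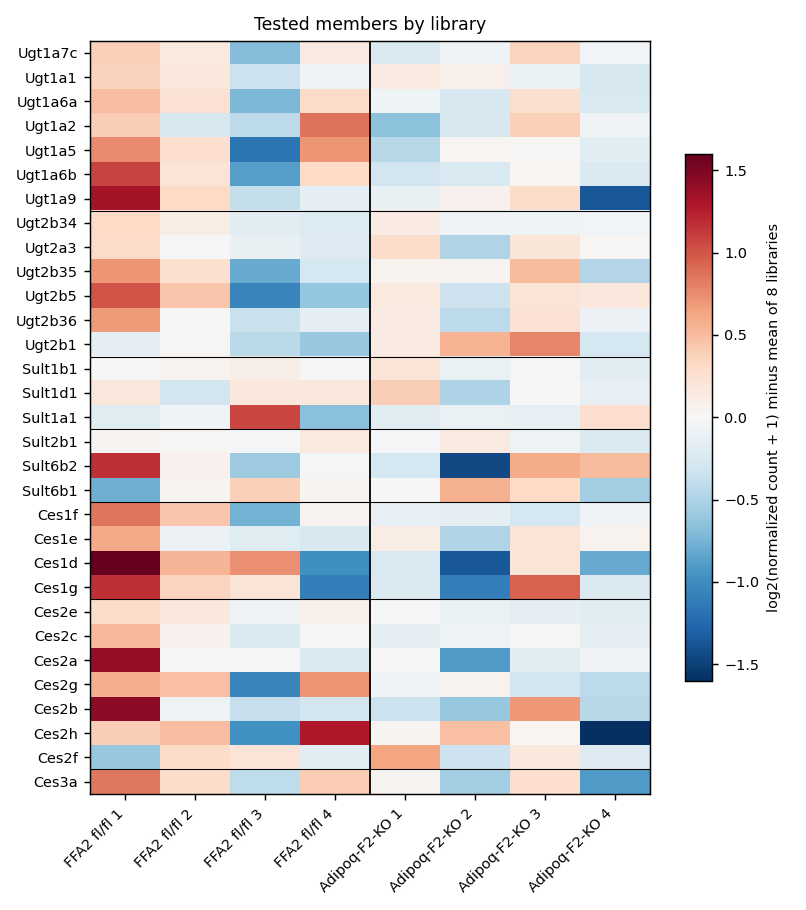
Log2(normalized count + 1) of the 31 tested members in each library, minus the mean over the 8 libraries (red above, blue below), with black lines between gene groups and between genotypes. The column of floxed library 1 is red for most members and that of floxed library 3 is blue for most Ugt1a genes, while Sult1b1 and Sult2b1 stay pale throughout.

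Markers moved with these libraries. Floxed library 1 had the lowest summed smooth muscle level of the 8 libraries (3768 normalized counts) and the highest summed level of 5 markers of the proximal small intestine (5905), and floxed library 3 had the highest smooth muscle level (30426) and the lowest proximal level (3133). Summed distal markers stood at 2235 in floxed library 3, against 942 to 1132 in the other floxed libraries and 1306 to 2649 in Adipoq-F2-KO mice. The summed villus enterocyte level of floxed library 3 was the highest of all, 1236898, and that of floxed library 1 was 1138972. Summed levels of 18 proliferation markers did not overlap, at 2147 to 2509 in floxed controls and 2531 to 2839 in Adipoq-F2-KO mice, and 5 of the 18 were higher at an unadjusted DESeq2 p below 0.05 (1.65% of all genes) with 0 passing adjustment. The part of proliferation, of muscle content or of position along the jejunum in the member values was not tested beyond the fit with a smooth muscle score, in which 24 of 31 members were below 0 (48.3% of all genes), the median was −0.16 and Ces2e was the 1 member lower at an unadjusted DESeq2 p below 0.05 (1.31% of all genes).

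Genes around these enzymes were read from 6 lists, in which none passed the adjusted threshold. All 5 tested genes of a list for UDP-glucuronic acid supply had an unadjusted DESeq2 p above 0.05, with a median log2 fold change of −0.0064. The list (Ugp2, Ugdh, Slc35d1, Slc35a3 and Slc35b1) was drawn broadly, and not all of its Slc35 transporters are carriers of UDP-glucuronic acid. The first by p was the nucleotide sugar transporter Slc35a3, with a log2 fold change of 0.064 (SE 0.10). Of 11 genes of sulfate and PAPS supply 1 was lower at an unadjusted p below 0.05 (1.38% of all genes), the anion exchanger Slc26a3, at 2975 ± 578 normalized counts in floxed controls and 2397 ± 156 in Adipoq-F2-KO mice (log2 fold change −0.31, 95% interval −0.61 to −0.02). The PAPS synthases Papss1 and Papss2 had log2 fold changes of 0.13 (SE 0.19) and 0.26 (SE 0.23). Of 5 genes on a deconjugation list 4 were tested, the glucuronidase Gusb and the sulfatases Arsa, Arsb and Arsg. The steroid sulfatase Sts was listed and not tested, so removal of sulfate from steroids is not covered. None of the 4 had an unadjusted p below 0.05, and Gusb had a log2 fold change of 0.053 (SE 0.19). Arsa came first by p, with a log2 fold change of 0.12 (SE 0.15). Among 12 other esterases and lipases, Pla2g12b, which is needed for lipoprotein secretion, was the only one below 0.05, where 1.38% of all genes were lower, and did not overlap between genotypes (2.12% of all genes), with 883, 809, 872 and 842 normalized counts in floxed libraries and 775, 676, 643 and 756 in Adipoq-F2-KO libraries (log2 fold change −0.25, 95% interval −0.45 to −0.06).

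Of 12 listed transporters of conjugates and drugs, 9 ABC exporters and 3 Slco organic anion carriers, 0 were below an unadjusted DESeq2 p of 0.05. Abcg2, an exporter of sulfate conjugates, came first by p, with a log2 fold change of 0.13 (SE 0.10). Of 23 tested genes in a list of receptors, transcription factors and their partners, which includes Keap1 and the PARP enzyme Tiparp, 1 was lower and 2 were higher at that level, against 1.38% and 1.65% of all genes. Nr1i2, which encodes the xenobiotic receptor PXR, had 2672, 2164, 1750 and 2323 normalized counts in floxed libraries and 1991, 1856, 1690 and 1506 in Adipoq-F2-KO libraries (log2 fold change −0.34, 95% interval −0.63 to −0.05). The groups overlapped through floxed library 3. Keap1, the inhibitor of NRF2, was at 322 ± 27.5 and 409 ± 39.97 (log2 fold change 0.34, 95% interval 0.08 to 0.59), and Hnf4g, a nuclear receptor of enterocytes, at 8245 ± 2027 and 11109 ± 2793 (log2 fold change 0.43, 95% interval 0.02 to 0.85). The DESeq2 adjusted p was 0.9998 for each gene named from the 6 lists with the smallest p.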

How the data were processed

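RNA from jejunal mucosal scrapings of 8 mice, 4 of each genotype, was made into stranded polyA libraries and read from one end over 75 bases. The authors trimmed reads with Trimmomatic, aligned them with STAR and counted them per gene with featureCounts, and they deposited raw read counts, 1 table per library. The submitters' processing notes name GRCm38 (mm10), and tool versions and the strand setting are not given in the sources used here.

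Groups and replicate numbers came from the sample titles. Symbols, exons and coordinates came from GENCODE M21 (GRCm38), which matched 52073 of 56980 identifiers, and promoters from RefSeq (GRCm38.p6). The filter was 10 counts in 4 or more libraries. It kept 15986 of 32652 genes with reads, which were tested with DESeq2 1.42.0 in R 4.3.3 (genotype only, two-sided Wald test, Benjamini-Hochberg adjustment over all of them). The authors also used DESeq2. For a normalized count, the raw count was divided by its library's size factor. The alternatives were edgeR 4.0.16, limma-voom 3.58.1, TMM or villus enterocyte size factors, other filters (none, or 50 counts), marker covariates, a replicate block, the 5 libraries over 10000000 counts and leaving out libraries. Scripts were tested on simulated data. No pair of libraries of a genotype was a duplicate by chi-square over genes (5.75 to 59.0 per gene).

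The members and lists were chosen with earlier results of these data known. Members named in full are those with an unadjusted p below 0.05 and, in each group, the up to 4 most abundant, and in each list of other genes the up to 3 with the smallest p below 0.05, or else the 1 with the smallest. Ces2b, Ces2f, Ces2h and the lowest Ugt1a genes, Ugt2b1, Ugt2b36, Gusb, Papss1, Papss2, Cidec and Abcc2 fall in part outside this rule and are given for completeness after their values were seen. The reads carried no molecular identifiers, so floors of 3 reads cover counting error only. The DESeq2 p-values set a fitted difference against the spread between these mice, which was estimated with the help of all tested genes.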

Additional observations from a re-analysis of the deposited data

Results flagged for a closer look

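In 7 of 62 groups of 4 libraries, each a member in one genotype, the highest or lowest library stood farther from its nearest neighbour than Dixon's 95% critical value allows (11.3%, against 6.34% of the 31972 such groups of all tested genes), where chance gives about 1 in 20. The members share libraries and are not separate observations. Floxed library 1 was such a high value for Ces1e (306 normalized counts), Ces2a (4833) and Ces2b (141). Among Adipoq-F2-KO mice, library 3 was high for Ces2b (84.1) and library 4 for Sult1a1 (18.8). Floxed library 2 was low for Sult1d1 (1877), and Adipoq-F2-KO library 2 was low for Ugt2b5 (164).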

How the results depend on the processing

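Counts of called members, the median and the members' log2 fold changes were recomputed under 19 alternatives (18 for members removed by the stricter filter), the one without floxed libraries 1 and 3 chosen after seeing the data. Non-overlap was recounted only where libraries, scaling or filter changed, and family sums, markers and pathway genes were not recomputed. Leaving out 1 library at a time gave 0 to 2 members at an adjusted p below 0.05 (0.0125 to 0.651% of all genes), 0 to 7 lower (0.838 to 3.77%) and 0 to 1 higher (0.926 to 4.38%) at an unadjusted p below 0.05, and 0 to 6 without overlap (3.63 to 9.54%). The 5 deep libraries gave 1 (Ces2g, 0.482% of all genes), 9 lower (2.85%) and 12 without overlap (23.6%). Omitting floxed libraries 1 and 3 gave 1 (Ces2g, 0.582% of all genes), 4 lower (2.38%) and 7 without overlap (15.9%). Both settings leave out floxed library 3, so they are not separate from the fit without it. limma-voom and the smooth muscle covariate each gave 1 lower (2.14% and 1.31% of all genes), and the villus enterocyte covariate gave 3 (2.55%). The replicate block gave 3 lower members (1.1% of all genes), 0 after adjustment and a median of −0.18. Correlations of same-numbered libraries were 0.607, 0.418, 0.037 and −0.478, so the numbers did not pair the mice. The median of the members stayed between −0.30 and −0.049 without single libraries, and it was −0.38 in the 5 deep libraries.

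The sign of the log2 fold change turned in 46 of 582 fits of the 31 members. Ranges without single libraries that crossed 0 were −0.17 to 0.17 for Ces1e and −0.87 to 0.068 for Ces1g, and values reached 0.12 for Ces2b and Ugt2b36 and −0.11 for Ces2f. Further ranges were −0.35 to 0.24 for Sult1a1, −0.26 to 0.039 for Sult1d1, −0.51 to 0.19 for Sult6b2, −0.19 to 0.039 for Ugt1a1, −0.21 to 0.097 for Ugt1a7c, −0.070 to 0.17 for Ugt2a3, −0.11 to 0.074 for Ugt2b34, −0.22 to 0.27 for Ugt2b35 and −0.36 to 0.31 for Ugt2b5. Without floxed libraries 1 and 3, Ces1e was at 0.17, Ces1g at 0.20, Ces2b at 0.073, Ugt2b36 at 0.046, Sult1a1 at 0.30, Sult1d1 at 0.023, Sult6b2 at 0.017, Ugt2b34 at 0.033, Ugt2b35 at 0.058 and Ugt2b5 at 0.049. In deep libraries Sult1a1 was at 0.14, Sult1b1 at 0.046 and Ugt2a3 at −0.093. limma-voom gave 0.055 for Sult1a1 and −0.011 for Ugt2a3. The villus enterocyte covariate gave 0.083 for Sult1a1. Villus enterocyte size factors gave 0.016 for Ugt2b35. The smooth muscle covariate gave 0.052 for Ugt1a7c, 0.077 for Ugt2b35 and 0.0075 for Ugt2b5, and the replicate block 0.032 for Ugt2b35 and 0.078 for Ugt2b5. The cause was not tested. Members under about 50 normalized counts have wide intervals at this depth.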

Other observations

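The 12 listed transporters of conjugates, drugs and organic anions were not highest in 1 and the same floxed library. Floxed library 1 was the highest floxed library for 5 (Abcc2, Abcc5, Abcc6, Abcb1a and Abcb1b) and the lowest for 4 (Abcc1, Abcc4, Abcg2 and Slco3a1), and floxed library 3 was the highest for 5 (Abcc1, Abcc4, Abcg2, Slco2a1 and Slco3a1). Summed normalized counts of the 12 listed transporter genes, 9 ABC exporters and 3 Slco organic anion carriers, were 39563, 29884, 22992 and 22501 in floxed libraries and 30900, 27457, 24033 and 24816 in Adipoq-F2-KO libraries, with floxed library 1 the highest of the 8. Abcc2 and Abcb1a made up 58.6% and 24.1% of the sum in that library. Abcc2, the apical exporter of glucuronide conjugates, had 23179, 16640, 9322 and 11613 against 16908, 15268, 12918 and 11767. Floxed library 1 was again the highest and floxed library 3 the lowest. The log2 fold change of Abcc2 was −0.096 (SE 0.25), and the genotypes overlapped.

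For Ces1c, Ces3b, Ugt1a8, Ugt2b37 and Ugt2b38, 5 of the 8 members over 3 reads but under the filter, floxed libraries 1 and 2 held more reads than the other 6 libraries together. Ugt1a8 had 8 and 9 reads there and 0, 0, 1, 0, 1 and 1 in the others, and Ces3b had 16 and 7 reads there and 0 to 6 in the others. Ces1b, Sult1c2 and Sult4a1, also over 3 reads and under the filter, did not have this arrangement. These 2 floxed libraries were the deepest of the 8, and the reads given here are not corrected for depth. The 5 were picked by these same reads, the share over all genes was not counted, and none of the 5 was tested.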
